A study of Mus musculus with 2 samples.

Results

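The genes described here handle bile acids in the intestinal epithelium and answer to them. They were chosen by name as 7 genes: Slc10a2, Fabp6, Slc51a and Slc51b for transport, and Nr1h4, Nr0b2 and Fgf15 for the response of the farnesoid X receptor (FXR). These genes and the other gene lists below were chosen with earlier results of these data known. Of these 7 genes, 6 have a row in the count table of 19294 genes, and Fabp6 has none, so no value is given for it. All 6 passed the minimum of 10 counts in at least one library, which 17235 genes passed.

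The counts came from mRNA-seq of 2 cultures of mouse intestinal organoids (mIOs), which are epithelial structures grown in Matrigel from intestinal crypts with EGF, Noggin and R-spondin. Both cultures carried the Lgr5-EGFP-IRES-creERT2 allele, which puts EGFP and an inducible Cre under the stem cell gene Lgr5, and both are labelled day 4. One was the untreated control, and the other was given dextran sulfate sodium (DSS), which damages epithelial cells, for 4 days. The DSS dose of the sequenced culture is not given in the sources used here. The study's methods describe crypts taken from the jejunum, and neither the methods nor the labels describe a bile acid treatment.

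Bile acids are secreted into the gut lumen with bile and are taken back mainly in the ileum. The apical sodium-dependent bile acid transporter ASBT, encoded by Slc10a2, brings them into the enterocyte, Fabp6 binds them in the cytosol, and the OSTα-OSTβ exporter, encoded by Slc51a and Slc51b, passes them to the blood. Inside the cell they activate FXR, the nuclear receptor encoded by Nr1h4, which pairs with RXRα and binds inverted repeats of the nuclear receptor motif. Known FXR targets in the ileum include Fabp6, Slc51a, Slc51b, Nr0b2, which encodes the repressor SHP, and Fgf15, a hormone that travels to the liver and lowers bile acid synthesis there.

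The promoter sequences of the exporter genes are shown because both genes are classical FXR targets and had similar log2 ratios, and that of Nr0b2 because this classical target did not share them. RefSeq promoters, from 250 bases before to 50 bases after the start site, were given for 6 of the 7 genes (build GRCm38.p6), all but Fgf15. They were searched for the inverted repeat that FXR binds, AGGTCA followed after 1 base by its reverse complement. The repeat reads the same on both strands and has 12 fixed letters. Matches with at most 3 mismatches are in capitals, and each promoter is written 5′ to 3′ along its gene.
Slc51a (chr16:32487830-32488129, minus strand): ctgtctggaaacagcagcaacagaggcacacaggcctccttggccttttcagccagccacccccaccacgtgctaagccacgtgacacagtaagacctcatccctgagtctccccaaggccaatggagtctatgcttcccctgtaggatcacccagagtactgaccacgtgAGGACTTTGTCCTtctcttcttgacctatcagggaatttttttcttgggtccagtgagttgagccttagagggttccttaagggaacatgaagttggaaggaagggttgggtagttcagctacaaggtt
Slc51b (chr9:65422724-65423023, minus strand): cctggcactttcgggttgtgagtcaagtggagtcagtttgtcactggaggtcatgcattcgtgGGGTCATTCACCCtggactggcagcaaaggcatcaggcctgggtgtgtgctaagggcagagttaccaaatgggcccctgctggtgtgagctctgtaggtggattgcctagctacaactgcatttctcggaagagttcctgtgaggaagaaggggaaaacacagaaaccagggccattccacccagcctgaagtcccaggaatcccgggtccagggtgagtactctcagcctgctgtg
Nr0b2 (chr4:133553126-133553425, plus strand): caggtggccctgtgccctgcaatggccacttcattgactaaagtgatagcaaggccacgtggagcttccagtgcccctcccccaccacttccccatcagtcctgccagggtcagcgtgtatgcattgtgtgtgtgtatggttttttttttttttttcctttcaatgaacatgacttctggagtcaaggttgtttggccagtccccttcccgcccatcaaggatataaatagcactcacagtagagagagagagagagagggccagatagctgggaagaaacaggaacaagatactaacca

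In the Slc51a promoter, 1 match with 3 mismatches began 79 bases before the start site. The Slc51b promoter also held 1 match with 3 mismatches, 187 bases before the start site. Matches as good occurred in 11.42% of the 32851 promoters in the table. The best match in the promoters of Nr0b2, Nr1h4 and Slc10a2 had 4 mismatches, a level that 56.39% of all promoters reached. Only 250 bases before to 50 bases after each start site were searched. Closer matches outside this window were not looked for and may be present, also for Nr0b2. The Fabp6 promoter held the closest matches of the 6, each with 2 mismatches, which 1.14% of all promoters reached. They are printed with 15 bases on either side, although the gene itself has no row in the table.
Fabp6, 222 bases before the start site (chr11:43601757-43601799, minus strand): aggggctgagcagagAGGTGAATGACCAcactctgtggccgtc
Fabp6, 142 bases before the start site (chr11:43601677-43601719, minus strand): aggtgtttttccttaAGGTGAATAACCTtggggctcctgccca

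An exact copy of the extended motif of LRH-1, TCAAGGTCA, which contains AGGTCA, was found on neither strand of the 6 promoters and in 0.42% of all promoters. No mismatch was allowed for this motif, so sites that differ from it by a letter were not counted and may be present. A match describes these letters only, and binding was not measured.

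Total depth was 65493032 counts in the control and 59746968 under DSS, and no gene in the table is at 0 in either library. A gene without a row therefore has no value here, and it may still have been detected in 1 library. Values are given as CPM, counts relative to library size, after TMM scaling, with factors of 1.09 for the control and 0.915 for the DSS library. Differences are log2 ratios of the DSS value to the control value, and their 95% intervals (exact, Clopper-Pearson) come from the 2 counts. Each condition is 1 library, so the spread between cultures is unknown, conditions were not tested against each other, and an interval describes counting error alone. The median log2 ratio of all 17235 genes was -0.06. In bulk RNA, a different share of cells of one type and a different amount of RNA per cell cannot be told apart.

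Of the 6 genes, 5 had a higher level in the DSS library, beside 8272 of all 17235 genes with a log2 ratio above 0. With TMM factors, the intervals of these 5 left out 0, and that of the last, Nr0b2, included it. At this depth, small differences also pass counting error. The transcription factor gene Hnf4a, for example, was at 0.05 with an interval from 0.03 to 0.07. The bile acid transporters and Fgf15 were 7.75 to 15.6 times as high under DSS as in the control, and the receptor gene Nr1h4 was 2.15 times as high. A log2 ratio of 2 or more was reached by 4 of the 6 genes, as against 7.87% of all genes, and -2 or less by 0 of 6, as against 6.54%. A ratio of 1 or more was reached by 5 of 6, beside 19.3% of all genes, and -1 or less by 0 of 6, beside 20.2%. The median of the 6 ratios was 2.99. Scaling by total counts shifts every ratio by -0.26 and puts Nr1h4 at 0.85, under the line of 1. It also puts the upper end of the Nr0b2 interval below 0.

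**Figure D1:**
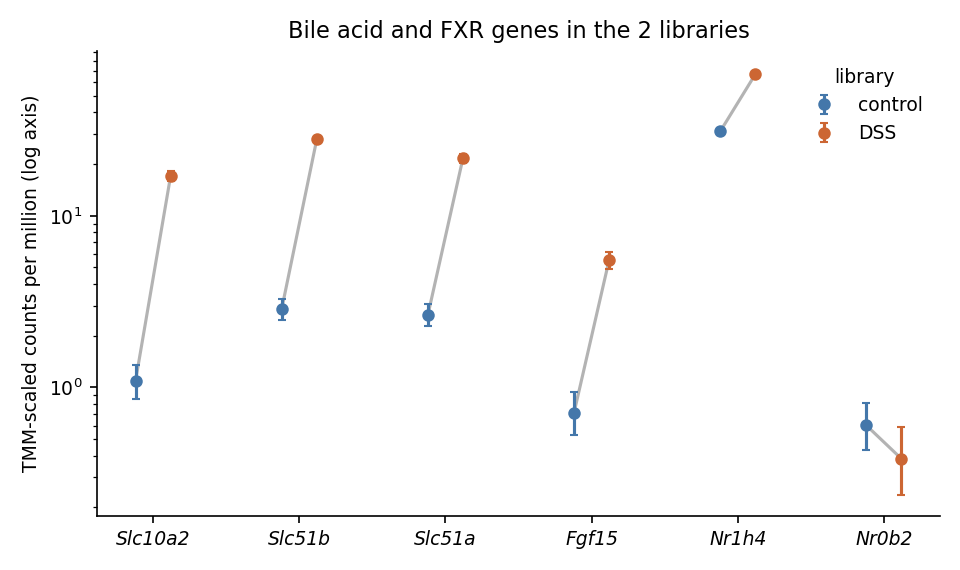
Level of each gene in the control library (blue) and the DSS library (orange), in TMM-scaled CPM on a log axis, 1 library per condition. Bars are exact Poisson 95% intervals (counting error only) and are smaller than the points where not visible. The DSS point lies above the control point for 5 genes and below it, with overlapping intervals, for Nr0b2.

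Uptake was represented by Slc10a2 (NCBI gene 20494). It had 78 counts in the control library and 932 in the DSS library, or 1.09 CPM (Poisson interval 0.861 to 1.36) and 17.0 CPM (16.0 to 18.2). The log2 ratio of 3.97 (interval 3.63 to 4.32) was the highest of the 6. It ranked 203 among the 17235 genes, counted from the highest ratio. No other annotated gene overlaps Slc10a2 in GENCODE vM21.

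Both subunits of the basolateral exporter were higher under DSS by similar amounts. Slc51a (NCBI gene 106407), the larger subunit, had 189 counts in the control and 1182 under DSS, which was 2.64 CPM and 21.6 CPM. Its log2 ratio was 3.03 (interval 2.81 to 3.26). Slc51b (NCBI gene 330962), the small subunit that the larger one needs to reach the membrane, had 205 and 1524 counts, or 2.86 CPM and 27.9 CPM. The ratio of Slc51b was 3.28, with an interval from 3.07 to 3.50.

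Because the log2 ratios of 2 genes share both libraries, their difference does not depend on the scaling. Slc51b lay 0.25 above Slc51a, with an exact conditional interval from -0.06 to 0.56 that includes 0. Slc10a2 lay above Slc51b by 0.68, with an interval from 0.28 to 1.10, and above Slc51a by 0.93, with an interval from 0.52 to 1.35. The importer thus differed between the libraries by a larger factor than either exporter subunit, beyond counting error. The annotated bodies of Slc51a and Slc51b overlap genes on the opposite strand, Pcyt1a and Rasl12. Pcyt1a had 6585 and 9738 counts and a log2 ratio of 0.95, and Rasl12 had 28 and 100 counts and a ratio of 2.23. The kit marks strand, but whether the counting used it is not stated, and the part of these reads in the exporter values was not tested.

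The hormone gene Fgf15 (NCBI gene 14170) had 51 counts in the control library and 302 in the DSS library. This was 0.713 CPM and 5.52 CPM, and the log2 ratio was 2.95, with an interval from 2.52 to 3.41. Fgf15 and the exporter subunits formed a group whose ratios were not separated by counting error. Fgf15 differed from Slc51a by 0.08 (interval -0.43 to 0.57) and from Slc51b by 0.33 (interval -0.18 to 0.82). An antisense gene at the Fgf15 locus, Gm26793, had 50 and 14 counts, a log2 ratio of -1.45, so it was lower in the library where Fgf15 was higher. Another antisense gene there, Gm39119, has no row. Whether the counting used strand is not stated, and the part of antisense reads in the Fgf15 values was not tested.

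Nr1h4 (NCBI gene 20186), which encodes FXR itself, had 2219 counts in the control and 3649 under DSS, or 31.0 CPM and 66.7 CPM. Its log2 ratio was 1.11, with an interval from 1.03 to 1.18, and it ranked 3007 of 17235. It had the most counts of the 6 genes in both libraries. Its ratio was lower than that of Fgf15 by 1.85, with an interval from 1.41 to 2.31. The table lists 7 RefSeq transcripts for Nr1h4 and gives 1 count for all of them, so isoforms could not be compared.

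Nr0b2 (NCBI gene 23957), whose product SHP represses other nuclear receptors, was the member with the fewest counts. It had 43 counts in the control library and 21 in the DSS library, which was 0.601 CPM (interval 0.435 to 0.809) and 0.384 CPM (interval 0.238 to 0.587). With TMM factors, the log2 ratio of -0.65 had an interval from -1.47 to 0.14, which includes 0. Total counts put the ratio at -0.90 and shift the interval by -0.26, so that its upper end falls below 0. Whether Nr0b2 differed beyond counting error thus depends on the scaling. The interval of the difference from Fgf15, which does not depend on the scaling, was far from 0. Fgf15 lay 3.60 above Nr0b2, with an interval from 2.68 to 4.54. Per kilobase, the level of Nr0b2 was 1.35 times that of Fgf15 in the control library and 0.111 times in the DSS library.

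**Figure D2:**
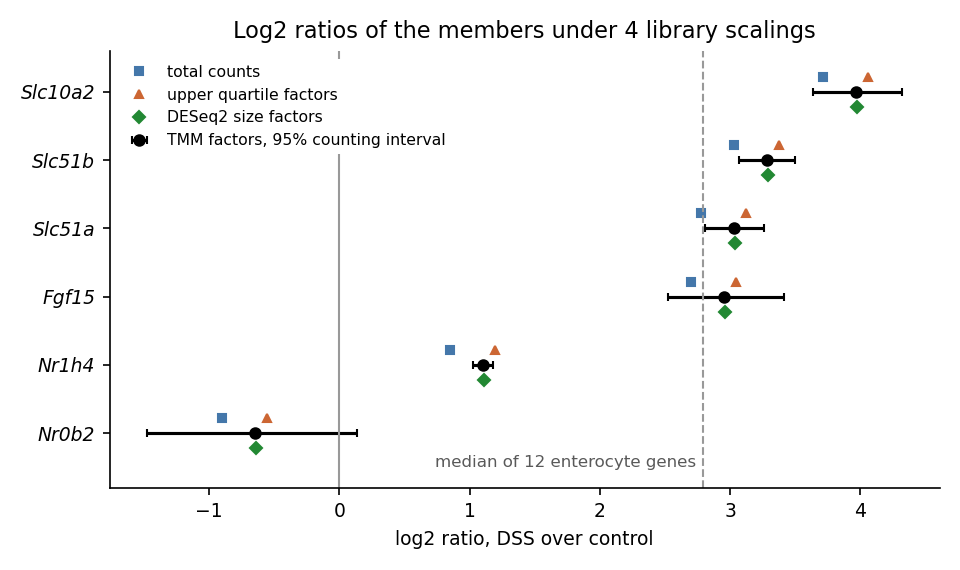
Log2 ratio (DSS over control, horizontal axis) of each gene, with TMM factors and exact 95% counting intervals in black and 3 other library scalings as coloured marks. A change of scaling shifts all genes by one amount, so their order cannot change. Nr0b2 stays below 0 in each scaling, and the dashed line is the median of 12 enterocyte genes at 2.79.

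Over all 15 pairs of the 6 genes, the interval of the difference in log2 ratio left out 0 in 12 pairs and included it in 3, which were the pairs among Slc51a, Slc51b and Fgf15. The order was therefore Slc10a2, then these 3 genes, then Nr1h4, then Nr0b2. These intervals were not corrected for the number of pairs and leave out the spread between cultures.

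Levels of different genes were compared only per kilobase of transcript, with lengths from GENCODE vM21. In the control library, Nr1h4 was highest at 15.4 CPM per kilobase, followed by Slc51b at 4.04 and Slc51a at 1.01. The 3 others lay close together there, with Nr0b2 at 0.531, Fgf15 at 0.394 and Slc10a2 at 0.262 CPM per kilobase, and the counting intervals of neighbours in this order overlap. In the DSS library, Slc51b was highest at 39.3 CPM per kilobase and Nr1h4 was next at 33.2. The order of these genes rests on 1 annotated length of 2013 bases for Nr1h4, which has 7 RefSeq transcripts. Slc51a followed at 8.26, Slc10a2 at 4.11 and Fgf15 at 3.05, and Nr0b2 was last at 0.339, with no overlap of the counting intervals of neighbours. Slc10a2 thus moved from the lowest of the 6 to the fourth, and Nr0b2 from the fourth to the lowest. The 2 exporter subunits did not have equal levels per length, with 4.01 times as much Slc51b as Slc51a in the control and 4.76 times as much under DSS. This value rests on the annotated length of 709 bases for Slc51b and 2618 bases for Slc51a.

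**Figure D3:**
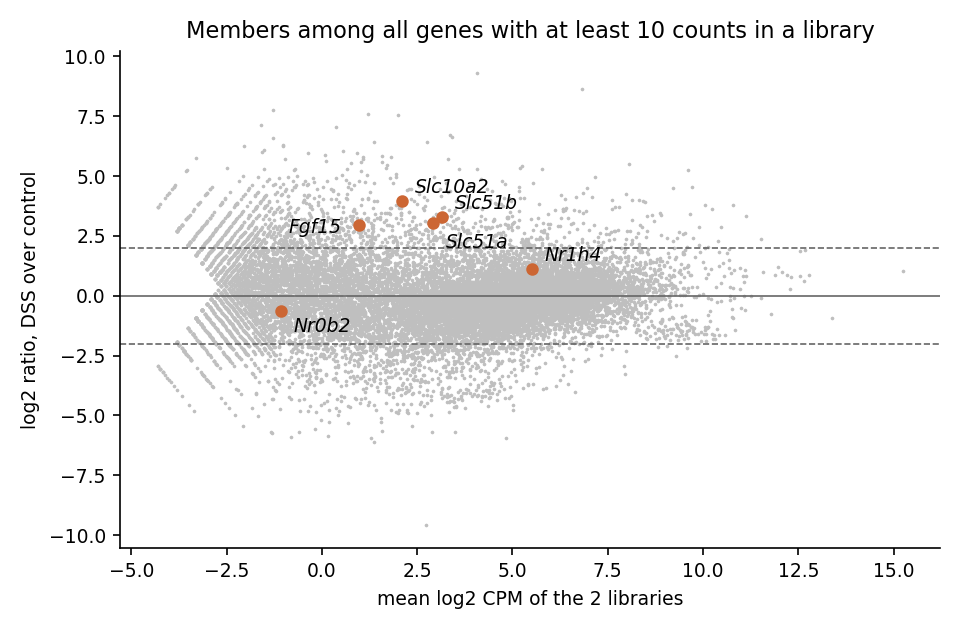
Log2 ratio (DSS over control) against the mean log2 CPM of the 2 libraries for 17235 genes (grey) with the 6 named genes in orange. Dashed lines are at 2 and -2, and 4 of the 6 genes lie above the upper line while Nr1h4 and Nr0b2 lie between the lines.

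Most of these genes are expressed in mature enterocytes, so markers of that cell and of others are given beside them. The culture is labelled as intestinal stem cells, yet both libraries held enterocyte transcripts. All 12 listed enterocyte genes were at a log2 ratio of 1 or more, beside 19.3% of all genes. Their median was 2.79, and their summed level was 4790 CPM in the control and 34325 CPM under DSS. With total counts, 10 of the 12 were at 1 or more. The 12 ratios ran from Anpep, a brush border peptidase, at 1.24 to the apolipoprotein gene Apoa1 at 5.27, with Apoa4 at 4.54 and the alkaline phosphatase Alpi at 3.94. Vil1 was at 1.25 here, with TMM scaling and 1 library per condition. The study's RT-PCR of DSS-treated organoids found Vil1 at a similar level and Lgr5 lower. RT-PCR is a different measure with its own normalization, so these Vil1 values are not on one scale. All 5 crypt stem cell genes were at -1 or less, beside 20.2% of all genes. Lgr5 was at -3.78, Smoc2 at -1.25, Ascl2 at -4.31, Axin2 at -4.26 and Olfm4 at -9.59. The summed level of these crypt genes was 832 CPM in the control and 130 CPM under DSS.

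Set against the median of the enterocyte genes, Slc10a2 lay 1.18 higher, Slc51b 0.49, Slc51a 0.24 and Fgf15 0.16 higher. For Nr1h4 the distance was -1.68 and for Nr0b2 -3.44. Of the 12 enterocyte genes, 2 had a higher log2 ratio than Slc10a2, 5 had a higher one than Slc51b, Slc51a and Fgf15, and all 12 were above Nr1h4 and Nr0b2. The part of the enterocyte share in these values was not tested. Of 7 hepatocyte genes, 2 were in the table, Alb and Apoh, with a summed level of 1.41 CPM in the control and 3.48 CPM under DSS. The mesenchymal genes in the table were 2 of 6, Col1a1 and Pdgfra, at 0.447 and 0.567 CPM, and the immune genes 3 of 6, Cd68, Itgam and Cd79a, at 12.2 and 23.0 CPM. Itgam, a myeloid integrin, was at 1.14 and the macrophage marker Cd68 at 0.73, while Ptprc, the general marker of leukocytes, has no row. The part of these cells in the bile acid genes' values was not tested.

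Slc10a2, Fabp6 and Fgf15 are best known from the ileum, so genes that differ along the small intestine were listed as well. All 4 ileal enterocyte genes were higher under DSS, beside 8272 of all 17235 genes with a log2 ratio above 0. Of the 4 ileal genes, 2 were at 1 or more, beside 19.3% of all genes. Cubn, the vitamin B12 receptor cubilin, had 85 and 820 counts and a log2 ratio of 3.66, and the lectin-like gene Clec2h was at 3.59. Amn, the partner of cubilin, was at 0.68 and the transcription factor gene Osr2 at 0.30, a value close to the shift between scalings. The proximal genes were higher too in 4 of 5 cases, and 3 of the 5 were at 1 or more. Lactase (Lct) was at 2.15, the fatty acid binding protein Fabp1 at 1.78, the iron exporter Slc40a1 at 1.63 and Onecut2 at 0.99. Gata4, the factor that marks the jejunum and is known to hold down ileal genes there, had 200 CPM in the control and 176 CPM under DSS, a ratio of -0.18 on the log2 scale, interval -0.22 to -0.14. The listed genes of both regions, apart from Gata4, thus had higher levels under DSS. The proximal list shares Fabp1 and Lct with the enterocyte list.

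**Figure D4:**
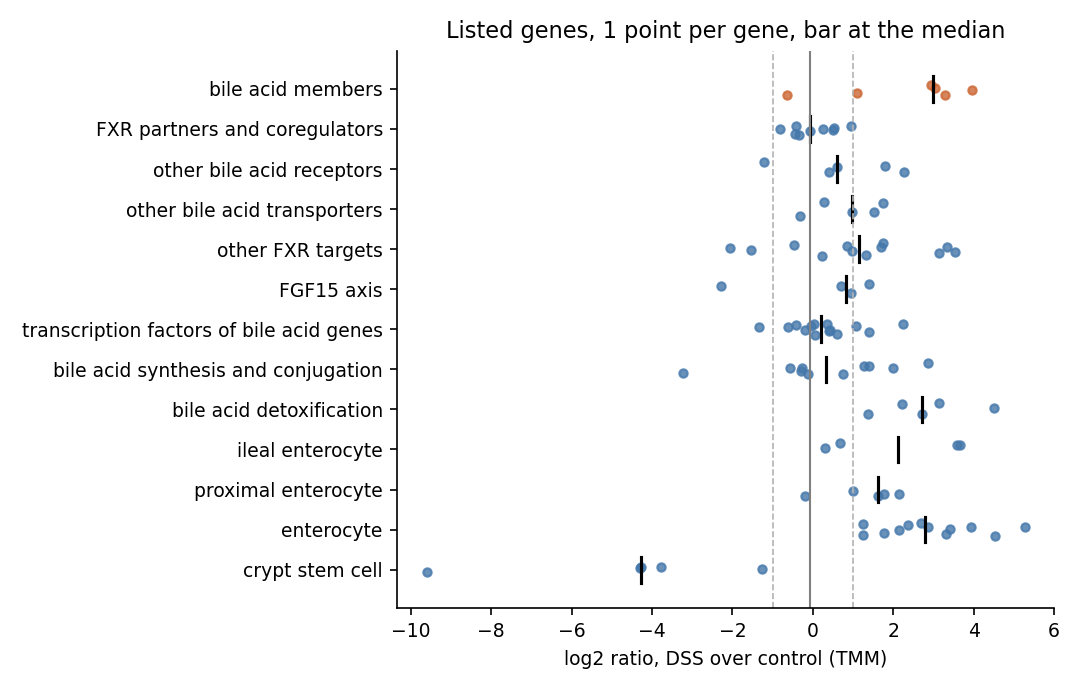
Log2 ratio (DSS over control, horizontal axis) of each listed gene with at least 10 counts in a library, 1 point per gene, grouped by list, with a black bar at each list's median. The solid grey line is the median of all genes (-0.06), dashed lines are at 1 and -1, and with TMM factors the enterocyte and detoxification genes all lie to the right of 1.

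Of 11 genes for heterodimer partners and coregulators, 9 were in the table, and 0 of these were at 1 or more or at -1 or less, while 10419 of all 17235 genes lay between these lines. Total counts put 1 of the 9 at -1 or less, and upper quartile factors put 1 at 1 or more. Rxra, the main partner of FXR, had 104 CPM in the control and 149 CPM under DSS, a log2 ratio of 0.53. The largest differences were those of Ppargc1a, a coactivator, at 0.96, and of Rxrb, at -0.82. The corepressor gene Ncor1 was at -0.08. Nr1h5, the second mouse FXR gene, and Rxrg have no row.

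Among the transcription factors known to act on bile acid genes, 10 of 14 lay between -1 and 1, as did 10419 of all 17235 genes, so the count is near that of all genes. Hnf4g, a factor of mature enterocytes, had 5005 and 18020 counts and a log2 ratio of 2.24, while its relative Hnf4a was at 0.05. Jun was at 1.40 and Cdx2, the intestinal homeobox factor, at -1.35. Nr5a2, which encodes LRH-1, the activator that SHP represses, was at -0.42 with an interval from -0.54 to -0.31.

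Of 5 other receptor genes listed with the bile acid response, 4 had a log2 ratio above 0 and 1 below it, beside 8272 of all 17235 genes above 0. Nr1i3, which encodes the xenobiotic receptor CAR, had 42.5 CPM in the control and 149 CPM under DSS, a log2 ratio of 1.81. The pregnane X receptor gene Nr1i2 was at 0.59 and the vitamin D receptor gene Vdr at 0.40. Gpbar1, the membrane receptor TGR5, had 3 and 11 counts, and its ratio of 2.26 had an interval from 0.34 to 4.74. S1pr2, a membrane receptor for conjugated bile acids, had 212 and 70 counts and a ratio of -1.21 (interval -1.62 to -0.81).

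Of 14 further genes described as FXR targets in gut or liver, 12 were in the table, with a median log2 ratio of 1.15. Of these, 6 were at 1 or more, beside 19.3% of all genes, and 2 at -1 or less, which is near the 20.2% of all genes. Apoc2, a cofactor of lipoprotein lipase, was at 3.55, the cytokine gene Il18 at 3.33 and the steroid hydroxylase Cyp3a11 at 3.14. Car12, a carbonic anhydrase gene reported to be induced by FXR in the ileum, went the other way, with 443 and 81 counts and a log2 ratio of -2.06. Nos2, which is named with it as an FXR target, was at 1.71. Fetub, a liver-secreted protease inhibitor, was at -1.54.

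Of 9 other bile acid and organic anion transporters, 5 were in the table. The apical pumps Abcc2 and Abcg2 were at 1.74 and 1.54, the basolateral pumps Abcc3 at 0.98 and Abcc4 at -0.32, and the uptake carrier Slco2b1 at 0.29. Abcc2 was abundant, with 389 CPM in the control and 1300 CPM under DSS. The liver transporters Abcb11, Slc10a1 and Slco1b2, and Slco3a1, have no row. All 5 genes of bile acid detoxification were at 1 or more, beside 19.3% of all genes, with a median of 2.71. Cyp3a11 of this list and the transporter gene Abcc2 are also among the further FXR targets, so these lists are not separate. Cyp3a13 was at 4.50, Cyp3a11 at 3.14, the sulfotransferase Sult2b1 at 2.71, Cyp3a25 at 2.22 and the glucuronosyltransferase Ugt1a1 at 1.37. The Cyp3a genes have close paralogs and the Ugt1a genes share exons, so their separate values are uncertain.

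On the receiving side of the hormone, Fgf15 signals through FGFR4 with the co-receptor β-Klotho. Fgfr4 had 379 counts in the control and 60 under DSS, a log2 ratio of -2.27 (interval -2.69 to -1.87). Klb, which encodes β-Klotho, had 100 and 124 counts and a ratio of 0.70. Malrd1, which encodes the protein Diet1 that raises the output of Fgf15, was at 0.95, and Fgfr1 at 1.39 with only 11 and 22 counts. Of these 4 genes, 3 had a log2 ratio above 0, beside 8272 of all 17235 genes, and Fgfr4 alone was below 0.

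The genes whose pair of values was nearest to that of Nr1h4, the gene with the most counts of the 6, were Tbc1d23, Rras and Rnasek. Their distances in log2 CPM over the 2 libraries were 0.02, 0.04 and 0.06. With 2 libraries this compares 2 values per gene, and 10 of the 14366 genes compared lay within 0.1.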

How the data were processed

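1 control and 1 DSS library of organoids were sequenced after poly(A) selection with a stranded kit. Per gene, the values the authors deposited are raw counts that were not normalized. The single-sample files, although named as FPKM, hold counts identical to those of the joint table for all 19294 genes. The submitters' processing notes name HISAT2 and StringTie. Versions, the counting program and the genome build are not given in the sources used here.

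Counts were scaled with TMM factors (edgeR 4.0.16, R 4.3.3). Intervals were computed with scipy 1.17.1 under Python 3.11.15. The matplotlib version was 3.10.9. The code for the ratios was run on simulated counts with known changes. Alternatives were total counts, DESeq2 1.42.0 size factors, upper quartile factors, a prior count of 2 and other count minimums. Named genes were the members, every gene of lists of at most 5 genes, and of longer lists the 3 genes farthest from 0 that had 50 or more counts in a library, and the 3 genes nearest to the member with the most counts. Others were named for their role or sign after their values were seen. The members and the 15 other lists were chosen with earlier results of these data known. Promoters were taken from RefSeq (GRCm38.p6), and overlaps and lengths from GENCODE vM21.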

Additional observations from a re-analysis of the deposited data

How the results depend on the processing

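No paired analysis was possible because each condition is 1 library, and leaving out a library was not possible for the same reason. With total counts, every log2 ratio was lower by one amount (-0.26), which gave 0.85 for Nr1h4, 2.78 for Slc51a and 3.03 for Slc51b, each below its counting interval. With total counts, 1 of the FXR partners and coregulators was at -1 or less, 1 hepatocyte gene at 1 or more and 0 immune genes at 1 or more. Upper quartile factors raised every ratio by 0.09, which gave 1.20 for Nr1h4 and put 1 of the FXR partners and coregulators and 2 genes of the FGF15 axis at 1 or more. With at least 10 counts in both libraries, 1 of the other listed receptor genes was at 1 or more, since Gpbar1 was left out, and with no minimum count 1 mesenchymal gene was. Total counts also put 2 transcription factor genes at 1 or more instead of 3, and 10 enterocyte genes instead of 12. Upper quartile factors put 3 other transporters at 1 or more instead of 2. They also put 7 further FXR targets there instead of 6, and 4 proximal genes instead of 3. DESeq2 size factors and the prior count of 2 changed none of these counts and left each ratio of the 6 genes within its counting interval. No ratio of the 6 genes changed sign under the 4 alternatives run on it. The counting interval of Nr0b2, however, includes 0 with TMM factors and leaves it out with total counts. Depth limits Nr0b2 most, with 43 and 21 counts. No alternative can stand in for replicate cultures.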

Other observations

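Of 14 genes of bile acid synthesis and conjugation, 10 were in the table, with a median log2 ratio of 0.32. Of these, 4 were at 1 or more, beside 19.3% of all genes, and 1 at -1 or less, beside 20.2%. Baat, the enzyme that joins bile acids to glycine or taurine, had 36 counts in the control and 200 under DSS, a log2 ratio of 2.86 (interval 2.34 to 3.42). Cyp27a1, the mitochondrial sterol hydroxylase of the alternative pathway, had 95 counts (1.33 CPM) and 290 counts (5.30 CPM), and the interval of its log2 ratio ran from 1.66 to 2.35. Scp2, a sterol carrier of the peroxisome, was at 1.40. Cyp39a1, an oxysterol hydroxylase, had 973 counts in the control and 80 under DSS, a log2 ratio of -3.22 (interval -3.56 to -2.89). Cyp7a1 and Cyp8b1, the liver enzymes whose genes SHP and Fgf15 hold down, have no row. These values have no replicate check.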
